A study of Mus musculus with 6 samples.

Results

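The genes of DNA replication and of the passage from G1 to S phase were followed in differentiating mouse embryonic stem (ES) cells depleted of Atad2. The set held 59 genes, chosen by name as the subunits of origin recognition and loading, of the replicative helicase, of the replication fork, of deoxynucleotide supply, and of the cyclin E and E2F circuit. They were found on the array by their annotated symbol or an older alias, and the rule for finding them uses no measured value, although the list was drawn up with earlier results of these data known. Of 19057 genes with a probe, the 59 carried 124 of 45281 probes. A gene was read where a probe lay above background (detection p-value under 0.05) on at least 3 of the 6 arrays, and 56 of the 59 genes passed, with 104 probes, among 10072 genes that passed in all. The other 3, Mcm8, Pola1 and Pole2, lay above background on 0 arrays and have no change to report.

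All cells were 46C-Atad2-tagged ES cells, in which the endogenous Atad2 protein carries a C-terminal His, Flag and Ha tag and which were established from 1 clone. The study describes its control hairpin both as non-targeting and as an inactive hairpin against Atad2. The shAtad2 cells stably expressed a lentiviral short hairpin RNA against Atad2, and the shCtrl cells this control hairpin from the same vector. Both were puromycin-selected pools, so that cells with different degrees of depletion were measured together, and both had been differentiating for 3 days since LIF (leukaemia inhibitory factor), which holds mouse ES cells in the undifferentiated state, was withdrawn. Total RNA was read on Illumina MouseWG-6 v2.0 beadchips, with 3 arrays of shAtad2 and 3 of shCtrl. Nothing in the labels says that replicates were separate cultures, so the p-values measure a spread that may be technical.

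Replication is prepared in G1, when the origin recognition complex, Cdc6 and Cdt1 load the Mcm2 to Mcm7 ring onto origins. Geminin, the product of Gmnn, holds Cdt1 in check once S phase begins. In S phase, Cdc45 and the GINS proteins turn the ring into a running helicase, behind which polymerase alpha with primase, the clamp Pcna and polymerases delta and epsilon copy the strands. Cyclin E with its kinase drives cells over the G1/S border, and E2F factors, held back by the retinoblastoma protein, switch on many of these genes. Mouse ES cells are known for a short G1 phase and for high cyclin E, and most of them are in S phase at any time. Atad2 is a bromodomain protein with an ATPase domain that binds acetylated chromatin, and in cancer cells it has been described as a co-activator of E2F.

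The knocked-down gene itself was read first. Atad2 stood at 5.69, 5.64 and 5.41 on the shAtad2 arrays 1 to 3, against 6.28, 6.48 and 6.39 on the shCtrl arrays 1 to 3, as normalized log2 intensity. The groups did not overlap and the log2 change was -0.80 (SE 0.14), with an adjusted p of 0.310 over all genes in limma and 0.0927 with the replicate number as a block. Without background correction the change was -0.27. The controls Actb and Gapdh changed by -0.02 each, by the brightest probe. Other Actb probes above background on all 6 arrays changed by -0.07 and 0.32. In both groups the third replicate differed from the first and second. The 8 markers of primitive streak and mesoderm differed between the third array and the mean of the other 2 by a median of -2.77 in shAtad2 and -2.58 in shCtrl, on the log2 scale, and on the third array 5 of the 8 in shAtad2 and 7 of the 8 in shCtrl were above background. The same 8 markers had a median log2 change of -0.94 between shAtad2 and shCtrl, with all 8 lower, 0 of them past the adjusted p without the block and 2 past it with the block (Mixl1, with a change of -1.50, and Cdx2, with -1.19, each at an adjusted p of 0.0479), and the 5 markers of primed epiblast read here were all higher, with a median of 0.48 and 0 past the threshold in either fit. Of 6 neurectoderm markers 3 were read, namely Nes (0.60), Ncam1 (1.42) and Zic1 (-0.59), and Ncam1 passed the adjusted threshold in the blocked fit only (adjusted p 0.0479). All 11 ES cell markers were read, 9 of them lower, with a median of -0.22, and 0 passed in either fit. Of 7 fibroblast markers 2 were read, both higher (0.78 for Dcn and 0.22 for Thy1), and of 7 endoderm markers 2 were read (-0.98 for Gata6 and 0.04 for Dab2), with 0 past the threshold in either fit. In a bulk sample, fewer cells of a type and less RNA per cell cannot be told apart, and the part of these markers in the values of the replication genes was not tested.

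Most changes of the replication and G1/S genes were small, and none of the 56 genes passed the threshold. In limma, 0 of 56 had an adjusted p under 0.05, where 0% of all 10072 genes did. With the replicate block, again 0 of 56 did, where 10 genes, or 0.0993% of all, did. At an unadjusted p under 0.05, 2 genes were lower in shAtad2, namely Pcna and Ccne1, and 1 was higher, namely Prim1. Over all genes 3.8% were lower and 4.12% were higher by that rule. With the block, 3 genes were lower (Pcna, Ccne1 and Ccne2) and 2 higher (Prim1 and Gins3), against 6.9% lower and 6.54% higher over all genes. Neither count stood above the share of all genes.

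The changes ranged from -0.45 for Ccne2 to 0.74 for Prim1 on the log2 scale, and their median was -0.03, beside -0.0012 for all genes tested. Of the 56, 32 were lower and 24 higher in shAtad2. The 32 make up 57.1%, beside 50.3% of all genes. Where each shAtad2 array was set against the shCtrl array of the same number, the median change of the 56 genes was -0.11 in the first pair, -0.02 in the second and 0.0023 in the third. In all 3 pairs, 13 genes were lower and 8 were higher, against 17.4% and 17.2% of all genes. Without the third replicates the median was still -0.03, with 32 genes lower.

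How large a change these arrays could have missed is given by the interval of each gene. The 95% confidence interval of the change lay within 2-fold in either direction for 53 of the 56 genes, and within 1.5-fold for 41. With the block, 48 lay within 1.5-fold. The 3 genes whose interval reached beyond 2-fold were Ccne2, Prim1 and Gins3. The median standard error of a gene was 0.144 on the log2 scale. Of all 10072 genes, 9241 had an interval within 2-fold and 5281 within 1.5-fold, or 6938 within 1.5-fold with the block. The intervals rest on the spread between replicates, which may be technical, and in that case the intervals are too narrow.

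**Figure D1:**
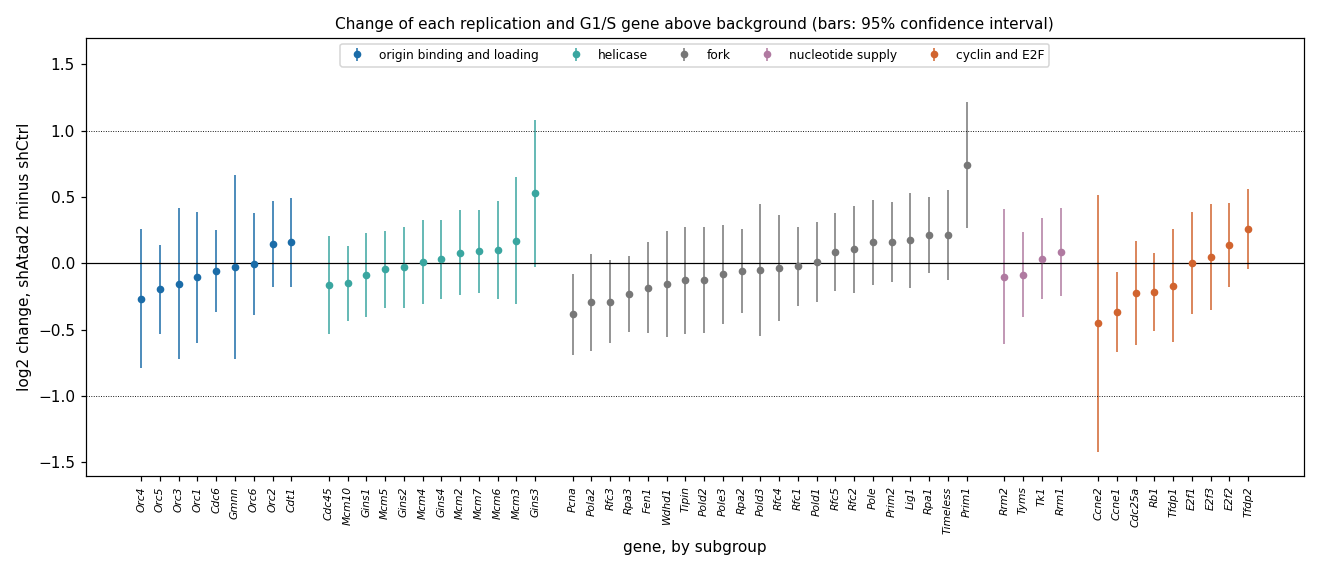
Log2 change of each of the 56 genes between shAtad2 and shCtrl (points) with its 95% confidence interval (bars), coloured and ordered by subgroup on the horizontal axis; dotted lines mark a 2-fold change. Most points lie near the line at 0, and the intervals of Prim1, Pcna and Ccne1 alone leave it out.

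Among genes of initiation, the subunits that bind and load origins lay on both sides of 0, most of them lower. All 9 were above background, 7 were lower, 2 higher, and their median change was -0.06. In each of the 3 pairs of arrays 5 of the 9 were lower. Without the third replicates 5 were lower too, with a median of -0.015. Orc5, a subunit of the origin recognition complex, had the smallest p of the 9. It read 10.58, 10.76 and 10.55 in shAtad2, against 11.02, 10.76 and 10.70 in shCtrl. The groups overlapped, and the change of -0.20 (SE 0.15) had an adjusted p of 0.831. The other origin recognition subunits changed by -0.10 (Orc1), 0.15 (Orc2), -0.15 (Orc3), -0.27 (Orc4) and -0.01 (Orc6). The loading factors Cdc6 and Cdt1 changed by -0.06 and 0.16, and neither passed the test. Gmnn, the inhibitor of Cdt1, was dim, above background on 2 shAtad2 arrays and 1 shCtrl array, and its change of -0.03 became 0.28 without the third replicates.

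The helicase genes lay around 0. Of 13 genes 12 were read, 5 lower and 7 higher, with a median of 0.02. The 6 subunits of the ring held closely to the line, with changes of 0.08 (Mcm2), 0.17 (Mcm3), 0.01 (Mcm4), -0.05 (Mcm5), 0.10 (Mcm6) and 0.09 (Mcm7). Mcm5 read 13.27, 13.28 and 13.15 in shAtad2, against 13.35, 13.26 and 13.22 in shCtrl. Its groups overlapped, and its 95% interval ran from -0.34 to 0.24. Mcm3 was lower on the third shCtrl array (9.82) than on the first and second (10.54 and 10.48), and its change became -0.03 without the third replicates, as those of Mcm2 and Mcm4 turned to -0.04 and -0.06.

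Gins3, 1 of the 4 subunits of the GINS complex that joins the helicase, had the largest change of this group. It read 8.10, 8.22 and 7.96 in shAtad2, against 8.05, 7.56 and 7.09 in shCtrl. The shCtrl arrays spread widely, and the first of them lay within the range of shAtad2. The change was 0.53 (SE 0.24) with an adjusted p of 0.659, and with the block the unadjusted p was 0.019 and the adjusted p 0.266. Without background correction the change was 0.33, and it was 0.29 without the third shCtrl array and 0.77 without the first. The difference within pairs was 0.05 in the first, 0.66 in the second and 0.87 in the third. Its partners Gins1, Gins2 and Gins4 changed by -0.09, -0.03 and 0.03. Cdc45, which completes the running helicase, changed by -0.16.

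Mcm10, a factor that helps to activate the helicase, was lower on every shAtad2 array than on every shCtrl array. It read 11.46, 11.55 and 11.45 in shAtad2, against 11.68, 11.63 and 11.60 in shCtrl. The change was small, -0.15 (SE 0.12), and its adjusted p was 0.857. A dimmer Mcm10 probe, above background on all 6 arrays, changed by -0.65, and another by -0.04. In a fit over the 18085 probes above background, the adjusted p of the dimmer probe was 0.530.

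At the fork, 22 of 24 genes were read, 13 lower and 9 higher, with a median of -0.04. Both Prim1 and Pcna, which had the smallest p-values of the set where each gene was read by its brightest probe, belong here. They went opposite ways. Prim1 is the catalytic subunit of primase, which lays the RNA primers of each new strand. It read 5.88, 5.91 and 5.64 in shAtad2, against 5.41, 5.13 and 4.67 in shCtrl. The groups did not overlap. The change was 0.74 (SE 0.20), or 1.67-fold, with an unadjusted p of 0.0069 and an adjusted p of 0.441, and with the block the adjusted p was 0.108. The probe was dim and lay above background on 2 of the 3 shCtrl arrays, and the change was 0.20 without background correction, 0.41 with an offset of 50 and 0.24 with the processed values deposited beside the raw ones. Prim2, the regulatory subunit of primase, changed by 0.16.

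Pcna, the sliding clamp that tethers polymerases to DNA, is the marker gene of the set. It read 8.15, 8.03 and 7.88 in shAtad2, against 8.41, 8.40 and 8.39 in shCtrl. Every shAtad2 array lay below every shCtrl array, and the shCtrl arrays were within 0.03 of each other. The change was -0.38 (SE 0.13), or 1.30-fold lower, with an unadjusted p of 0.020 and an adjusted p of 0.523, and with the block the adjusted p was 0.279. Of the clamp loader genes, Rfc3 was lower on every shAtad2 array than on every shCtrl array. It read 7.73, 7.57 and 7.73 in shAtad2, against 8.01, 8.06 and 7.82 in shCtrl, a change of -0.29 (SE 0.14) with an adjusted p of 0.678 that was -0.19 without background correction. The other clamp loader genes did not follow it, with changes of -0.02 (Rfc1), 0.11 (Rfc2), -0.03 (Rfc4) and 0.08 (Rfc5).

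The single-strand binding protein RPA gave a mixed picture across its 3 subunits. Rpa1, the large subunit, read 12.91, 12.81 and 12.83 in shAtad2, against 12.57, 12.69 and 12.66 in shCtrl. Rpa3, the small subunit, read 11.41, 11.38 and 11.30 in shAtad2, against 11.65, 11.53 and 11.59 in shCtrl. Neither pair of groups overlapped, and the direction differed. The changes were 0.21 (SE 0.12) for Rpa1 and -0.23 (SE 0.12) for Rpa3, with adjusted p-values of 0.765 and 0.735. Rpa2, between them in size, changed by -0.06.

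Among the polymerases, Pola2, the accessory subunit of polymerase alpha, was lower in shAtad2 on all arrays. It read 9.75, 9.67 and 9.29 in shAtad2, against 9.91, 9.84 and 9.85 in shCtrl. Most of the gap came from the third shAtad2 array, and the change was -0.29 (SE 0.16) with an adjusted p of 0.726, or -0.16 without the third replicates. Polymerase delta genes changed by 0.01 (Pold1), -0.13 (Pold2) and -0.05 (Pold3), and those of polymerase epsilon by 0.16 (Pole) and -0.08 (Pole3). Timeless, which with Tipin protects and paces the fork, read 10.76, 10.60 and 10.81 in shAtad2, against 10.30, 10.63 and 10.59 in shCtrl. The groups overlapped through the second arrays, and the change of 0.22 (SE 0.15) had an adjusted p of 0.806. Tipin changed by -0.13. Lagging-strand processing was split, with -0.19 for the flap nuclease Fen1 and 0.17 for the ligase Lig1, and the fork scaffold Wdhd1 changed by -0.16.

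**Figure D2:**
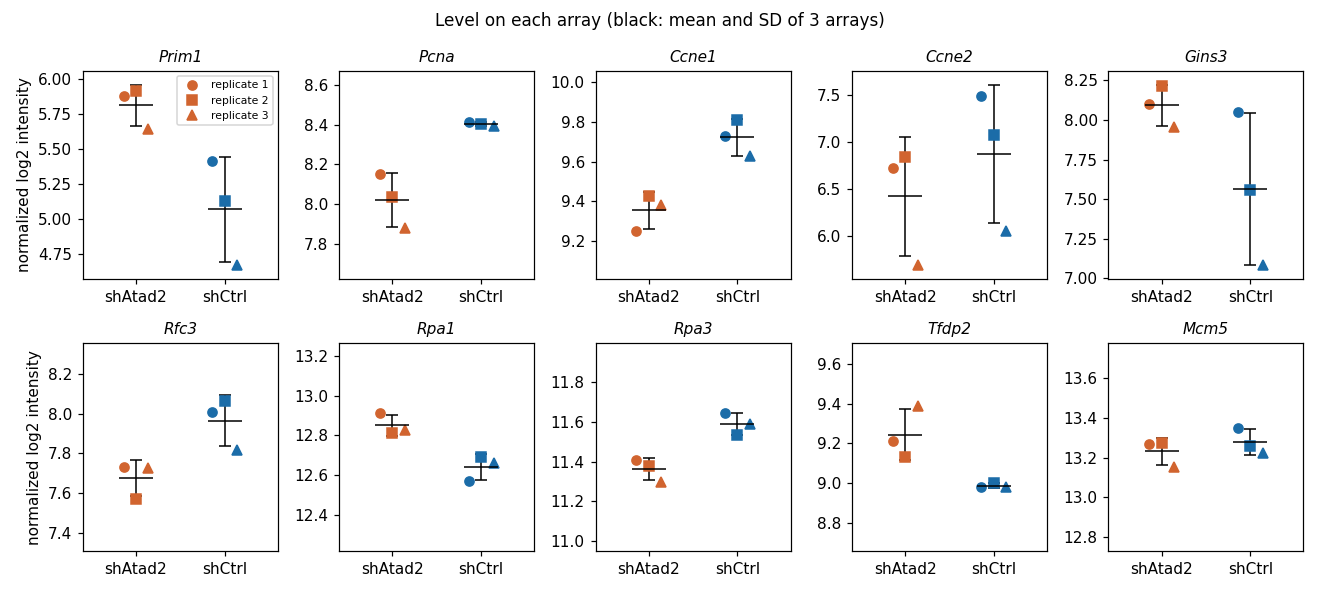
Normalized log2 intensity of 10 genes on each array, shAtad2 at the left and shCtrl at the right of each panel; symbols mark the replicate number and black bars the mean and SD of 3 arrays. Pcna, Ccne1, Rfc3 and Rpa3 are lower on all shAtad2 arrays, Prim1, Rpa1 and Tfdp2 are higher, and Ccne2 is lowest on the third array of both groups.

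The genes of nucleotide supply lay around 0 by their brightest probes. The 4 genes changed by 0.08 (Rrm1, the large subunit of ribonucleotide reductase), -0.10 (Rrm2, its small subunit), 0.04 (Tk1, thymidine kinase) and -0.08 (Tyms, thymidylate synthase), with a median of -0.02. Tyms had the smallest p of these. It read 11.40, 11.45 and 11.33 in shAtad2, against 11.57, 11.57 and 11.28 in shCtrl, an overlap between the groups, and its adjusted p was 0.954. All 4 were lower in the first pair of arrays and 1 was lower in the third pair. A dimmer Tyms probe, above background on 5 of the 6 arrays, changed by -0.67. In the limma fit over probes above background, the adjusted p of this probe was 0.502.

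The cyclin and E2F genes had the lowest median of the subgroups, -0.17, with 5 of 9 lower and 4 higher. The 2 genes of cyclin E led them. Ccne1 read 9.25, 9.43 and 9.38 in shAtad2, against 9.73, 9.81 and 9.63 in shCtrl. The groups were apart, and each pair agreed in direction, with differences of -0.48, -0.38 and -0.24. The change was -0.37 (SE 0.13), with an unadjusted p of 0.023 and an adjusted p of 0.530, and with the block the adjusted p was 0.291.

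Ccne2 moved with the replicate number more than with the hairpin. It read 6.73, 6.85 and 5.69 in shAtad2, against 7.48, 7.08 and 6.06 in shCtrl. The third array was lower than the mean of the other 2 by 1.09 in shAtad2 and by 1.22 in shCtrl, so the groups overlapped. The change was -0.45 (SE 0.42) with an adjusted p of 0.895. Without background correction it was -0.21. It was -0.86 without the third shCtrl array, -0.15 without the first shCtrl array and -0.086 without the third shAtad2 array. Within pairs Ccne2 was lower each time, the differences being -0.75, -0.23 and -0.37, and with the block its unadjusted p was 0.017 and its adjusted p 0.263.

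None of the E2F factors themselves passed the test. E2f1, an activating E2F, read 9.38, 9.45 and 9.74 in shAtad2, against 9.35, 9.47 and 9.75 in shCtrl. The arrays matched pair by pair, and the 95% interval of the change ran from -0.38 to 0.39, or from -0.29 to 0.30 with the block. The activators E2f2 and E2f3 changed by 0.14 and 0.05. Cdc25a, the phosphatase that activates the cyclin E kinase, changed by -0.22.

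Of the dimerization partners of E2F, Tfdp1 changed by -0.17 and Tfdp2 by 0.26. Tfdp2 read 9.21, 9.13 and 9.39 in shAtad2, against 8.98, 9.00 and 8.98 in shCtrl. The groups did not overlap, and the SE was 0.13 and the adjusted p 0.710. All 6 of its probes above background were higher, by 0.12 to 0.59, although none passed the adjusted threshold. Rb1, which encodes the retinoblastoma protein that restrains E2F, read 7.69, 7.77 and 7.57 in shAtad2, against 7.90, 7.94 and 7.84 in shCtrl. These also did not overlap, with a change of -0.22 (SE 0.13) and an adjusted p of 0.767.

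Taking all 56 genes, the shAtad2 arrays lay wholly below the shCtrl arrays for 7 (Mcm10, Pcna, Pola2, Rfc3, Rpa3, Ccne1 and Rb1) and wholly above for 3 (Prim1, Rpa1 and Tfdp2). Over all genes tested, 6.59% lay wholly below and 6.94% wholly above. By array, the mean level of the 56 genes relative to each gene's own mean over the 6 arrays was -0.02, 0.01 and -0.02 in shAtad2, against 0.06, 0.01 and -0.04 in shCtrl. The shAtad2 arrays lay inside the range of the shCtrl arrays.

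**Figure D3:**
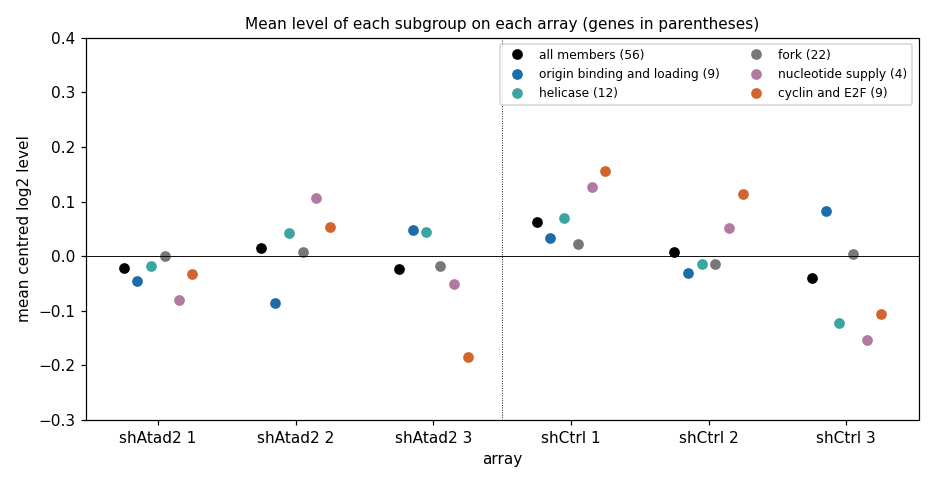
Mean log2 level of each subgroup on each array, relative to each gene's mean over the 6 arrays, with the 3 shAtad2 arrays left of the 3 shCtrl arrays. The subgroups scatter around 0 on every array, and the cyclin and E2F genes have their lowest mean on the third arrays of both groups.

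Several genes were read by more than 1 probe, which gives a second look within the same RNA. Of 26 such genes, 15 had the same direction in all their probes and 11 did not, while 30 genes had a single probe. The 11 with opposite signs were Mcm4, Mcm6, Mcm7, Pole3, Rpa2, Lig1, Tipin, Rrm1, Rrm2, Tyms and E2f3. Tyms was the widest of them, with 5 probes from -0.67 to 0.19. The probes of the others ran from -0.03 to 0.16 (Mcm4), -0.01 to 0.10 (Mcm6), -0.02 to 0.09 (Mcm7), -0.08 to 0.08 (Pole3), -0.09 to 0.23 (Rpa2), -0.03 to 0.17 (Lig1), -0.15 to 0.04 (Tipin), -0.13 to 0.08 (Rrm1), -0.10 to 0.15 (Rrm2) and -0.18 to 0.05 (E2f3). Over the 104 probes, 57 were lower and 47 higher. At an unadjusted p under 0.05, 4 probes were lower, from 4 genes, and 4 were higher, from 2 genes, beside 3.5% lower and 3.86% higher of all 18085 probes. The 4 lower ones were 1 each of Pcna, Ccne1, Mcm10 and Tyms, and the 4 higher ones were 3 of Tfdp2 and 1 of Prim1. In this limma fit the unadjusted p was 0.0045 for the Tyms probe (-0.67) and 0.0060 for the Mcm10 probe (-0.65). For Prim1 it was 0.0068. Of the 104 probes, 0 passed the adjusted threshold with or without the block.

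Promoters of the set were examined for the letters to which E2F binds. Windows from 250 bases before to 50 after each start site (RefSeq, GRCm38.p6) were at hand for 48 of the 59 genes. On either strand, 20 of the 48, or 41.7%, held at least 1 of the words TTTCCCGC, TTTCGCGC, TTTGCCGC and TTTGGCGC, against 2.6% of 27025 genes with a window and 4.92% of the 8173 such genes tested here. The word CCAAT was in 27, or 56.2%, against 41.1% of all genes, and it was in all 9 helicase genes with a window. A match is a description of the letters and not a bound site. Stretches are shown for members whose values are described above, 5' to 3' on the strand of the gene, with the word in capitals, as it stands or as its reverse complement. In the first 4 the capitals mark an E2F word, and in Mcm5 and Mcm6 a pair of such words on opposite strands overlaps in a single run.
Mcm5: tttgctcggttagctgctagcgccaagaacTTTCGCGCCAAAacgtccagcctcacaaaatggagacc
Mcm6: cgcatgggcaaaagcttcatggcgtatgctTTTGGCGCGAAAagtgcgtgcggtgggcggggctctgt
Cdc6: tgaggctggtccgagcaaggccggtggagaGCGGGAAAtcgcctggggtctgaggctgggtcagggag
Gins3: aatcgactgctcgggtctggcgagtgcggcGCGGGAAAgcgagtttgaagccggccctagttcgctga
Pcna: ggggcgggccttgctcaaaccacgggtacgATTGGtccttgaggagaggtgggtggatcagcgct
Prim1: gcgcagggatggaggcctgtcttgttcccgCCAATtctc

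The stretches lie at chr8:75109326-75109393 (plus strand) for Mcm5, chr1:128359778-128359845 (minus strand) for Mcm6, chr11:98907983-98908050 (plus strand) for Cdc6 and chr8:95633488-95633555 (plus strand) for Gins3. In the last 2, Pcna at chr2:132253233-132253297 (minus strand) and Prim1 at chr10:128015176-128015214 (plus strand), no E2F word was in the window and the capitals mark CCAAT. In each, the word starts upstream of the start site, by 153 bases in Mcm5, 110 in Mcm6, 138 in Cdc6, 41 in Gins3, 87 in Pcna and 9 in Prim1.

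The changes were then read by promoter word, without a test. The 17 members with an E2F word that were read on the arrays had a median change of 0.01, with 8 lower and 9 higher, from -0.29 (Rfc3) to 0.53 (Gins3). The 28 without one had a median of -0.07, with 18 lower and 10 higher. They held Pcna, Ccne1 and Prim1, the members with an unadjusted p under 0.05 in the limma fit without the block. Only 4 exact words were searched, so a gene without one is not shown to lack an E2F site. Over all genes, the 402 with an E2F word had a median of -0.03, with 222 lower (55.2%) and 180 higher, and 0 passed the adjusted threshold in either fit. The 7771 tested genes without such a word had a median of 0.0002, with 3880 lower (49.9%) and 3891 higher. Of these 7771, 0 passed the adjusted threshold without the block and 8 with it. These larger groups were set beside the members after their values were seen.

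Other genes of the pathway, outside the 59, leaned further to lower values than the members. Of 65 listed, 55 were read, 36 lower and 19 higher, with a median of -0.06. The 36 make up 65.5%, beside 57.1% of the members and 50.3% of all genes. At an unadjusted p under 0.05, 3 were lower and 0 higher (3 and 2 with the block), and 0 passed the adjusted threshold with or without the block. The shares over all genes were 3.8% lower and 4.12% higher, or 6.9% and 6.54% with the block. Cdk4, the kinase that starts the phosphorylation of Rb1 with cyclin D, had the smallest p of them. It read 11.80, 11.68 and 11.52 in shAtad2, against 12.29, 12.34 and 11.83 in shCtrl. The groups did not overlap, with a change of -0.49 (SE 0.18) and an adjusted p of 0.547. Mybl2, a transcription factor of the cell cycle, changed by -0.43.

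Each list of other genes was read through its gene with the smallest p. Asf1b, a histone chaperone at the fork, read 6.85, 6.71 and 6.99 in shAtad2, against 7.45, 7.14 and 7.10 in shCtrl, with a change of -0.39 (SE 0.15) and an adjusted p of 0.583. Dut, which removes dUTP, read 9.33, 9.43 and 9.57 in shAtad2, against 9.67, 9.71 and 9.70 in shCtrl, with a change of -0.25 (SE 0.13) and an adjusted p of 0.714. Dtl, the adaptor that sends Cdt1 for destruction, read 6.11, 6.54 and 5.72 in shAtad2, against 5.57, 5.98 and 5.56 in shCtrl, with a change of 0.42 (SE 0.23) and an adjusted p of 0.735. Asf1b and Dut were lower on all shAtad2 arrays, and Dtl overlapped. Within nucleotide metabolism, 8 of the 9 genes read were lower, with a median of -0.12. Among genes of fork processing and partners of Pcna, 13 of 17 were lower, with a median of -0.09. The genes that control origin firing and licensing had 5 of 10 lower (median -0.01). The G1/S kinases, inhibitors and pocket proteins had 10 of 19 lower (median -0.02).

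Genes of mitosis and the kinetochore, used as a comparison with another cell cycle phase, had a median of -0.04, with 20 of 35 lower (57.1%). At an unadjusted p under 0.05, 3 of the 35 were lower and 0 higher (5 and 0 with the block). The shares over all genes were 3.8% lower and 4.12% higher, or 6.9% and 6.54% with the block. The smallest p was that of Ndc80, a kinetochore subunit, at 8.87, 9.43 and 8.88 in shAtad2, against 9.70, 9.39 and 9.62 in shCtrl, with a change of -0.51 (SE 0.19) and an adjusted p of 0.563. Histone genes listed as replication-dependent by their older symbols had a median of -0.13, with 38 of the 50 read lower, but this rested on the third arrays. Whether each of them is transcribed in S phase was not checked. Their median was 0.06 in the first pair, -0.04 in the second and -0.44 in the third, and -0.01 without the third replicates. H2bc18 had the smallest p, at 5.23, 5.32 and 5.14 in shAtad2, against 5.84, 5.68 and 5.64 in shCtrl, with a change of -0.49 (SE 0.13) and an adjusted p of 0.436. Histone genes are near copies of each other, so that signal may be shared between their probes.

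**Figure D4:**
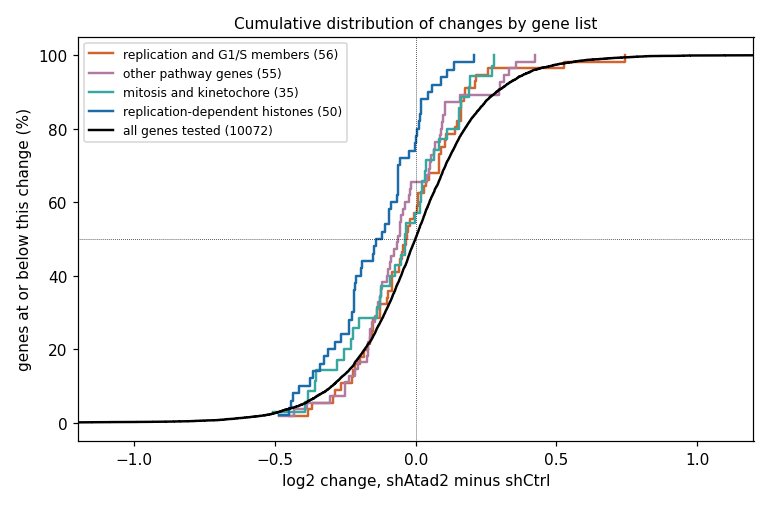
Share of genes (vertical axis, %) at or below each log2 change between shAtad2 and shCtrl (horizontal axis), for the 56 replication and G1/S genes, 55 other pathway genes, 35 mitosis genes, 50 histone genes and all 10072 genes tested. The curve of the replication genes crosses 50% at -0.03, and that of the histones, at -0.13, lies furthest to the left.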

How the data were processed

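Total RNA of 3 shAtad2 and 3 shCtrl samples was measured on 6 arrays, grouped and numbered by their sample titles. The authors deposited raw probe intensity together with its detection p-value, and a table of processed intensity, on a linear scale with the same distribution on all arrays, which served as an alternative. The sources used here give neither the scanner software nor the authors' normalization. Median raw intensity per array was 130.0 to 138.9, and the number of arrays limits the precision.

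With neqc of limma 3.58.1 (R 4.3.3), intensity was background-corrected from the detection p-values, offset by 16, quantile-normalized and log2-transformed. The offset understates changes of dim probes. Probes with 1 gene symbol and a detection p-value under 0.05 on at least 3 of 6 arrays were kept, and the brightest stood for a gene. Symbols came from the platform annotation, updated through Entrez identifiers, and histone genes were found by older symbols among RefSeq synonyms. Changes are shAtad2 minus shCtrl, tested by lmFit and eBayes, two-sided, with Benjamini-Hochberg adjustment over 10072 genes at a threshold of 0.05. The study's methods name no test of single genes for these arrays, but do name a gene set enrichment analysis of its differentially expressed genes. From it, the study reported lower expression of an E2F-regulated proliferation category after knockdown, a measure not computed here. Lists were described by counts and medians.

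Deviations from group means correlated between arrays of the same number at 0.30, 0.29 and 0.58, and the numbers were taken as pairs. The blocked fit is given where it moved a call, or a count of calls by over 1.5 times. Arrays 1 and 2 of opposite numbers correlated as well (0.30 and 0.34). The data thus set the third arrays apart but do not tell the first pair from the second, which were matched by their number alone. Alternatives covered background correction, offset, normalization, processed table, filter, probe choice, variance model, block and left-out arrays. The fits were checked on simulated data. Full values were given for Atad2, Pcna, the 12 members with the smallest p-values, the smallest p-value of each subgroup and other list, and, as ranges over probes, members whose probes disagreed. Markers past the threshold are given by their changes. Mcm5, Mcm10, Ccne2, E2f1 and Mybl2 were singled out after their values were seen. Members and lists were chosen with earlier results of these data known.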

Additional observations from a re-analysis of the deposited data

How the results depend on the processing

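Under 18 alternatives, 0 members passed the adjusted threshold, 28 to 35 of the members read were lower, and their median change lay between -0.05 and 0.0044. The count of members at an unadjusted p under 0.05, 3 as reported, was 7 without background correction and with the authors' processed values, 5 without a filter on dim probes and with the replicate block, and 6 with a trended robust variance or with the third replicates as a block. With arrays left out it ran from 1 (without the second shCtrl array) to 8 (without the third shCtrl array), and was 6 without the third array of both groups. The replicate block changed no call of a member, and its calls among the markers (Mixl1, Cdx2 and Ncam1) are given in the report. Atad2 passed the threshold with the third replicates as a block (-0.80, adjusted p 0.04998 by limma). Leaving out background correction or raising the offset shrank the changes of dim genes, among them Prim1 and Atad2.

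The fork median was -0.0062 with the mean of a gene's probes and -0.0071 without the third replicates, with or without the block. It ran from -0.076 to 0.0057 with arrays left out, those values being without the second and the third shCtrl array, and was 0.0043 without the first and -0.015 without the third shAtad2 array. The cyclin and E2F median ran from -0.24 without the third shCtrl array to -0.086 without the third shAtad2 array, and was -0.092 without the first shCtrl array. The helicase median turned to -0.037 without the third replicates. Among members given in full, leaving out 1 array moved the change by over 1.5 times for Gins3 and Ccne2, Pola2 (-0.15 without the third shAtad2 array), Timeless and Orc5 (0.11 and -0.10 without the first shCtrl array) and Tyms (-0.18 to -0.035). It did so for Mcm5 as well (-0.073 to -0.0062). The causes were not tested.

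No gene that changed sign was called. With arrays left out, the ranges across 0 were -0.17 to 0.034 for Actb, -0.047 to 0.026 for Gapdh, -0.22 to 0.11 for Orc1, -0.37 to 0.013 for Orc3, -0.23 to 0.075 for Orc6, -0.21 to 0.35 for Gmnn, -0.040 to 0.13 for Mcm2, -0.060 to 0.30 for Mcm3, -0.060 to 0.074 for Mcm4, -0.023 to 0.18 for Mcm6, -0.086 to 0.046 for Gins2, -0.033 to 0.072 for Gins4, -0.047 to 0.093 for Pold1, -0.17 to 0.18 for Pold3, -0.18 to 0.022 for Pole3, -0.061 to 0.062 for Rfc1, -0.17 to 0.10 for Rfc4, -0.34 to 0.052 for Rrm2, -0.021 to 0.086 for Tk1, -0.10 to 0.12 for E2f1 and -0.075 to 0.16 for E2f3. Without the third replicates and with the replicate block, changes of opposite sign were 0.083 for Orc1, 0.28 for Gmnn, -0.040 for Mcm2, -0.034 for Mcm3, -0.060 for Mcm4, -0.027 for Gins4, 0.12 for Pold3 and 0.062 for Rfc1. With the mean of a gene's probes they were 0.075 for Actb, 0.020 for Pole3, 0.027 for Rpa2, -0.035 for Rrm1 and -0.067 for E2f3. With cyclic loess they were 0.025 for Gapdh and -0.0075 for Mcm4, and with the authors' processed values 0.0029 for Gmnn. Array signal limits Prim1 and Gmnn, whose probes were not above background on every array.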
